A study of Mus musculus with 84 samples.

Results

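The liver stores glucose as glycogen, and 9 genes of glycogen synthesis and breakdown were followed in liver and epididymal white adipose tissue (eWAT) of diet-induced obese mice. They were chosen by symbol, as Gyg, Ugp2, Gys2, Gbe1, Pygl, Phka2, Ppp1r3b, Ppp1r3c and Ppp1r3g, out of 48794 genes listed in each table, and each symbol was matched to 1 Ensembl gene. All 9 passed the filter on low counts in liver, and 8 passed it in eWAT, where Ppp1r3g did not. RNA was sequenced from 42 liver and 42 eWAT libraries, in 7 groups of 6 per tissue. The animals were male C57BL/6J mice on a 60% high-fat diet, single-housed with free access to food and 22 weeks old when dosing began, and all of them, the vehicle group included, carried this diet and age. Subcutaneous doses were given daily for 30 days as vehicle, as BI 456906, a peptide agonist of both the glucagon receptor (GCGR) and the glucagon-like peptide-1 receptor (GLP-1R), at 1 of 4 doses (3, 10, 20 and 30 nmol/kg), or as semaglutide, an agonist of the GLP-1R only, at 1 of 2 doses (20 and 100 nmol/kg). The labels do not say at what time of day or after how long without food the tissues were taken, and they do not tie a liver library to an eWAT library of the same mouse. The comparisons ask how each compound and dose differed from vehicle, and how BI 456906 differed from semaglutide.

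Glycogen is started on the protein glycogenin (Gyg), which adds the first glucose units to itself. Ugp2 makes UDP-glucose, the donor of every further unit, Gys2 is the glycogen synthase of liver, and Gbe1 makes the branch points. Pygl is the glycogen phosphorylase of liver, which releases glucose 1-phosphate, and phosphorylase kinase, of which Phka2 is the regulatory alpha subunit of liver, activates it. Ppp1r3b, Ppp1r3c and Ppp1r3g bring protein phosphatase 1 to glycogen, where it activates the synthase and inactivates the phosphorylase. Glucagon, acting through its receptor and cyclic AMP, switches this enzyme system in hepatocytes from synthesis to breakdown by phosphorylation, a change that messenger RNA does not show.

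The genes lie on 9 chromosomes of GRCm38 (GENCODE M21), so none of them is a neighbour of another. Gyg (ENSMUSG00000019528) is at chr3:20122084-20155317 on the minus strand and Ugp2 (ENSMUSG00000001891) at chr11:21321138-21371201 on the minus strand. Gys2 (ENSMUSG00000030244) is at chr6:142422613-142473109 (minus), Gbe1 (ENSMUSG00000022707) at chr16:70313949-70569716 (plus) and Pygl (ENSMUSG00000021069) at chr12:70190811-70231488 (minus). Phka2 (ENSMUSG00000031295) is at chrX:160502166-160598878 (plus). The phosphatase-targeting genes are Ppp1r3b (ENSMUSG00000046794, chr8:35375739-35388139, plus), Ppp1r3c (ENSMUSG00000067279, chr19:36731731-36736653, minus) and Ppp1r3g (ENSMUSG00000050423, chr13:35958839-35970388, plus). Annotated genes overlap 5 of the 9 members, and where these were listed none exceeded 1.21 TPM (an abundance normalized for transcript length and library size), the highest being Gm45469 at the Ppp1r3b locus in liver.

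The sequences just upstream of the start sites are shown because 6 of the 9 members fell in liver with BI 456906 30 nmol/kg. Cyclic AMP and nutrient factors are known to act at such sites, and their part in these changes was not tested. RefSeq (GRCm38.p6) gave the 250 bases before a start site for 7 of the 9 members, in 8 windows. Within them, 4 motifs were searched on both strands, namely the cyclic AMP response element (CRE) TGACGTCA, the shorter core TGACG, which the full element contains, the E-box CACGTG and the GC box GGGCGG. Printed are the bases of a window ahead of the first base that an annotated exon covers, 5′ to 3′, with matches in capitals. They are the plus strand of chr16:70313699-70313948 for Gbe1, the minus strand of chr11:21370630-21370879 for Ugp2 (a start site inside the annotated gene), the plus strand of chrX:160501912-160502161 for Phka2 and the minus strand of chr19:36736654-36736854 for Ppp1r3c. Gyg and Ppp1r3g also had such bases, which are not printed. The Pygl window and the other Ugp2 window began in an exon and are not printed. Exons covered 93 and 58 of their 250 bases.
Gbe1: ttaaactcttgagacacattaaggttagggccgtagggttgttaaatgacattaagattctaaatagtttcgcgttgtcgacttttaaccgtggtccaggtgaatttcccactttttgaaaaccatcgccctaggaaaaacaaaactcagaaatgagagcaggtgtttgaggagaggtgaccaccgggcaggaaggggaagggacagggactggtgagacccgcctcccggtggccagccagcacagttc
Ugp2: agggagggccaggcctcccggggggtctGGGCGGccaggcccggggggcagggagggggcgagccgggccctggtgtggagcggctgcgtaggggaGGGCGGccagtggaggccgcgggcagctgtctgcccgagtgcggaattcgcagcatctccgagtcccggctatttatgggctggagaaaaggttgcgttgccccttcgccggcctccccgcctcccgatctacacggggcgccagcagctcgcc
Phka2: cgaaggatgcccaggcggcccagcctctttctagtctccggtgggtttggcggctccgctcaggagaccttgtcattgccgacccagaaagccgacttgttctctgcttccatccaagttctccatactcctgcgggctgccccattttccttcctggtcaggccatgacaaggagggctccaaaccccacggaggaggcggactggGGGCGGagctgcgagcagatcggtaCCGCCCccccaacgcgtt
Ppp1r3c: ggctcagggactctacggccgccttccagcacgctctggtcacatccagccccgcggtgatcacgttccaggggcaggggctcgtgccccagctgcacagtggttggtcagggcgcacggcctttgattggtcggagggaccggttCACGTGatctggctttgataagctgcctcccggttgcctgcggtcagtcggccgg
The full CRE was found in none of the 7 members with a window, and in 1.55% of all 32851 windows of this length. The core alone was found for Pygl and Ppp1r3g (17.8% of all windows), beginning 44 and 40 bases before the start. Both windows (chr12:70227684-70227933 and chr13:35967656-35967905) lie inside the annotated genes. The Ppp1r3g match lies in bases that an annotated exon covers. The E-box was found for Ppp1r3c (6.02% of all windows), beginning 104 bases before the start, and the GC box for 5 members (32.7% of all windows). In the Gbe1 window, which had the lowest share of G and C of the 8 (48.8%), none of the 4 motifs was found. A match is a run of letters, and neither a match nor its absence tells which factors bind.

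Whole reads recovered from the count tables numbered 21676902 to 53869104 per liver library and 37573004 to 53996914 per eWAT library. Markers matched the tissue labels, with Alb, the hepatocytes' plasma protein, at 43236 TPM or more in every liver library, and Adipoq, an adipocyte hormone, at 740 TPM or more in every eWAT library and at most 0.55 TPM in liver. The 6 hepatocyte markers summed to between 67785 and 82248 TPM in vehicle liver and to between 87991 and 103459 TPM at 30 nmol/kg BI 456906. The 5 adipocyte markers summed to 50.0 to 215 TPM in vehicle liver against 19.7 to 129 TPM at that dose, nearly all of it Cidec and Fabp4. The 8 clock genes summed to 76.99 to 99.7 TPM in vehicle liver and to 124 to 146 TPM at 30 nmol/kg BI 456906. With semaglutide 20 nmol/kg the hepatocyte, adipocyte and clock sums were 80391 to 92060, 47.7 to 89.6 and 105 to 138 TPM. With semaglutide 100 nmol/kg they were 79986 to 109863, 38.4 to 158 and 94.7 to 112 TPM. Their part in the results below was not tested. Values are relative to the rest of each library, so fewer cells of a type and less RNA per cell cannot be told apart.

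**Figure D1:**
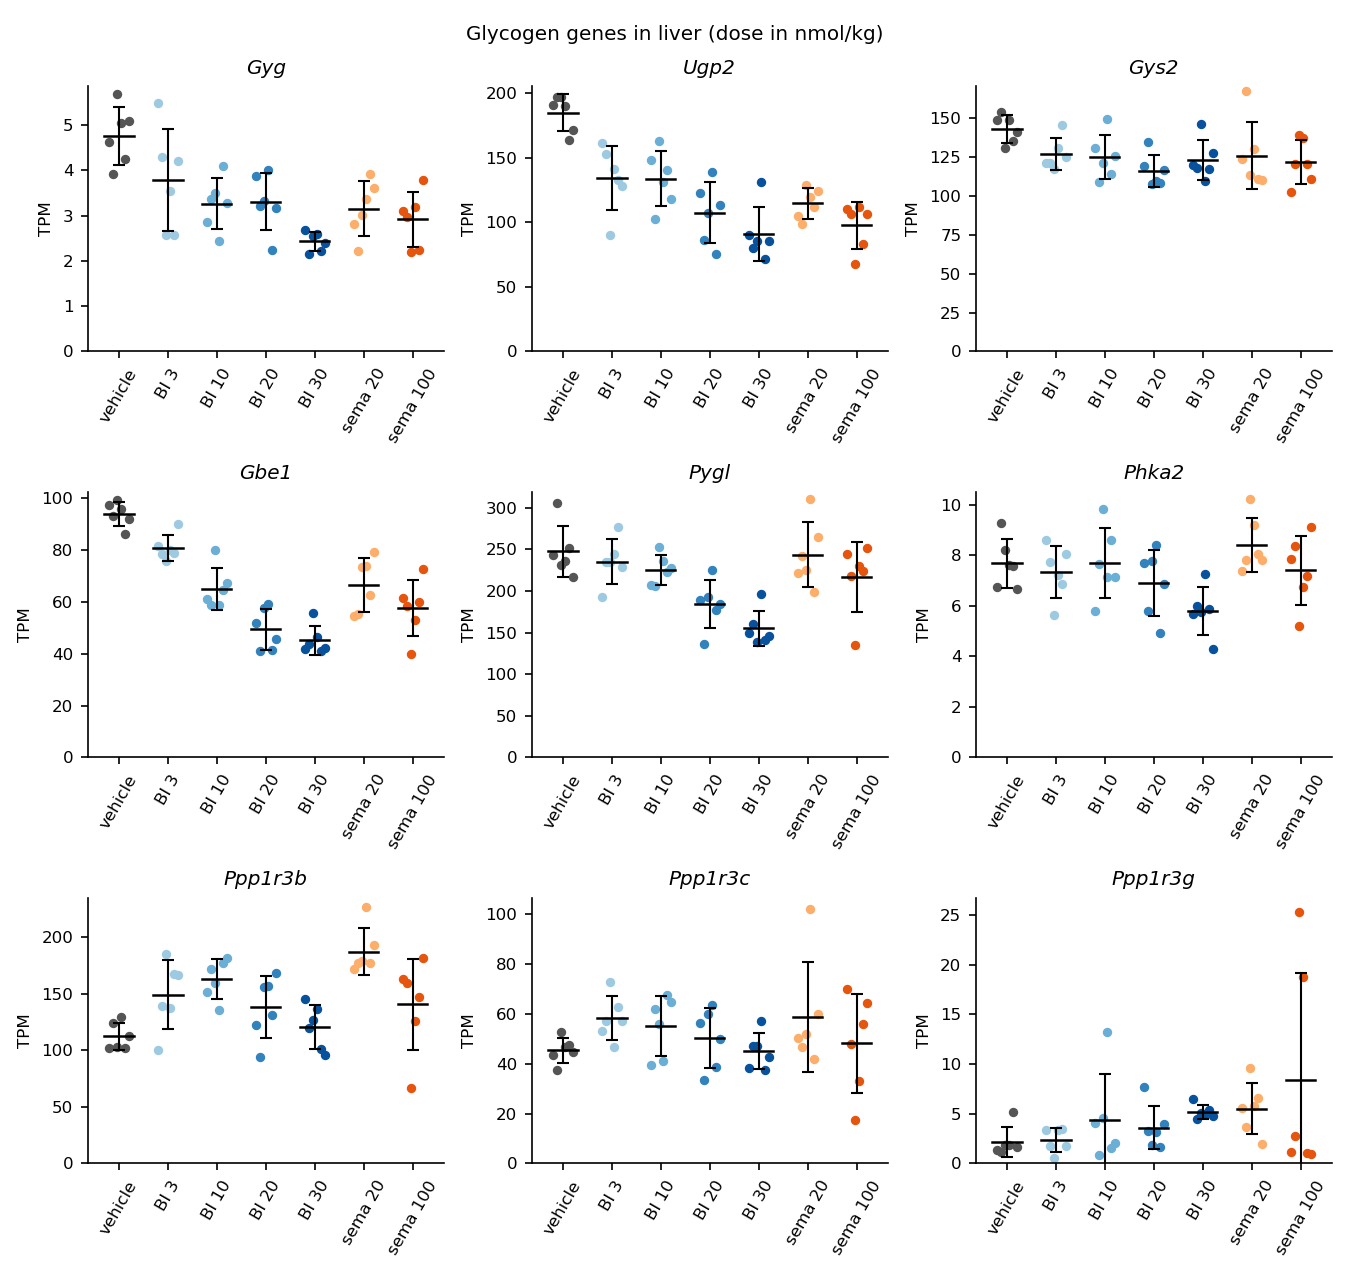
TPM of each of the 9 genes in the 42 liver libraries (vertical axes, linear from 0), by treatment group with the dose in nmol/kg (horizontal axes; BI, BI 456906; sema, semaglutide). Points are libraries, the bar is the mean and the whisker is ± SD (n = 6), cut at 0 where it would pass below. Ugp2 and Gbe1 were below every vehicle library in all libraries of both semaglutide groups and of BI 456906 at 10, 20 and 30 nmol/kg, and Ppp1r3g was spread widely at semaglutide 100 nmol/kg.

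In vehicle liver the genes differed widely in level. Mean TPM was 247 ± 30.9 for Pygl, 185 ± 14.1 for Ugp2, 143 ± 8.91 for Gys2, 112 ± 11.9 for Ppp1r3b, 93.8 ± 4.67 for Gbe1 and 45.5 ± 5.01 for Ppp1r3c (SD, n = 6). Phka2 was at 7.68 ± 0.974, Gyg at 4.77 ± 0.640 and Ppp1r3g at 2.18 ± 1.49 TPM. Between neighbours in this order the 6 values did not overlap, except for Gyg and Ppp1r3g.

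Genes that start the chain and supply its substrate fell with both compounds. Ugp2 in liver was at 163.5 to 197 TPM with vehicle (median 190). With BI 456906 at 3 nmol/kg it was at 90.3 to 162 TPM (median 137), at 10 nmol/kg at 103 to 162.95 (136), at 20 nmol/kg at 75.5 to 139 (110) and at 30 nmol/kg at 71.4 to 131 TPM (85.5). With semaglutide it was at 98.6 to 129 TPM (median 116) at 20 nmol/kg and at 67.5 to 112 TPM (107) at 100 nmol/kg. In each of the 6 dosed groups all libraries were below all vehicle libraries. Against vehicle, Ugp2 fell by 1.16 on the log2 scale (standard error, SE, 0.14; false discovery rate, FDR, 9.7e-09) with BI 456906 30 nmol/kg and by 1.04 (SE 0.14, FDR 3.0e-07) with semaglutide 100 nmol/kg. At the lowest BI 456906 dose it fell by 0.54 (SE 0.14, FDR 0.011), a call lost with only the groups compared (FDR 0.10), and no other member passed there in limma/voom. Gyg at that dose was at -0.40 (FDR 0.0505) and passed in 3 of 14 alternatives.

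Glycogenin was a scarce transcript of liver, with Gyg at 3.92 to 5.69 TPM in vehicle (median 4.84). At 30 nmol/kg BI 456906 the range was 2.15 to 2.68 TPM (median 2.48) and at semaglutide 100 nmol/kg 2.19 to 3.78 TPM (3.05), both wholly below vehicle. Gyg fell by 1.00 (SE 0.15, FDR 5.8e-07) and by 0.81 (SE 0.15, FDR 2.3e-05) on the log2 scale. At BI 456906 3 nmol/kg its fold change was -0.40 (SE 0.14), with an FDR just above 0.05 that went to between 0.023 and 0.18 over the alternatives.

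Of the enzymes that build the polymer, the branching enzyme moved more than the synthase. Gbe1 in liver was at 86.1 to 99.3 TPM with vehicle (median 94.3) and at 75.7 to 90.1 TPM (79.3) with BI 456906 3 nmol/kg. The range was 58.8 to 79.9 TPM (median 62.7) at 10 nmol/kg, 40.9 to 59.1 (48.7) at 20 nmol/kg and 41.2 to 55.6 TPM (42.9) at 30 nmol/kg. With semaglutide it was 54.6 to 79.4 TPM (67.9) at 20 nmol/kg and 39.8 to 72.6 TPM (59.2) at 100 nmol/kg. Apart from BI 456906 3 nmol/kg, every dosed group lay wholly below vehicle. Gbe1 fell by 1.10 (SE 0.10, FDR 2.4e-11) under the highest BI 456906 dose. Semaglutide lowered it by 0.56 (20 nmol/kg; SE 0.10, FDR 2.3e-05) and by 0.74 (100 nmol/kg; SE 0.10, FDR 3.1e-07). Its slope over the BI 456906 doses from vehicle to 30 nmol/kg was -0.37 log2 units per 10 nmol/kg (SE 0.03, FDR 3.4e-13).

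Gys2 was at 131 to 154 TPM in vehicle liver (median 145), at 110 to 146 TPM (119) with BI 456906 30 nmol/kg and at 102 to 139 TPM (120) with semaglutide 100 nmol/kg. The groups overlapped, and the changes were small. Gys2 fell by 0.28 (SE 0.09, FDR 0.0090) and 0.28 (SE 0.09, FDR 0.014) on the log2 scale, and by 0.38 (SE 0.09, FDR 0.00098) with BI 456906 20 nmol/kg. Its fall of 0.23 (FDR 0.046) under the lower semaglutide dose was lost in 10 of 14 alternatives. Within a library, the log2 ratio of Gbe1 to Gys2 was -0.61 ± 0.11 with vehicle and -1.45 ± 0.12 with BI 456906 30 nmol/kg, while it was -0.92 ± 0.41 and -1.09 ± 0.44 under the lower and the higher semaglutide dose (SD, n = 6).

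On the side of breakdown, the phosphorylase and the kinase subunit fell at the higher doses of BI 456906. Pygl was at 217 to 306 TPM in vehicle liver (median 240), at 136 to 226 TPM (187) with BI 456906 20 nmol/kg and at 139 to 196 TPM (148) with 30 nmol/kg. With semaglutide it was at 199 to 310 TPM (233) at 20 nmol/kg and at 136 to 252 TPM (227) at 100 nmol/kg. BI 456906 30 nmol/kg lay wholly below vehicle, while both semaglutide groups overlapped it. Pygl fell by 0.75 (SE 0.11, FDR 5.2e-07) with BI 456906 30 nmol/kg and by 0.55 (SE 0.11, FDR 0.00016) with 20 nmol/kg. With semaglutide 100 nmol/kg it fell by 0.29 (SE 0.11, FDR 0.037), a call lost in 6 of 14 alternatives. Without libraries 81 and 82 of that group the change was -0.14 (FDR 0.34). That value is a description, since those libraries were left out for their Ppp1r3g level.

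Phka2 was at 6.67 to 9.27 TPM in vehicle liver (median 7.61) and at 4.29 to 7.26 TPM (5.82) with BI 456906 30 nmol/kg, and these groups overlapped. It fell by 0.59 (SE 0.12, FDR 3.4e-05) with that dose and by 0.31 (SE 0.11, FDR 0.021) with 20 nmol/kg. The latter call was lost in 4 of 14 alternatives, the change being -0.15 (FDR 0.35) in limma on log2(TPM + 1). The lower and the higher semaglutide dose gave -0.11 (SE 0.11, FDR 0.41) and -0.18 (SE 0.11, FDR 0.18). Over the alternatives the Phka2 change lay between -0.66 and -0.36 with BI 456906 30 nmol/kg (FDR up to 0.012). With semaglutide 20 nmol/kg it lay between -0.14 and 0.13. As a level rather than a difference, the log2 ratio of Pygl to Gys2 in a liver library was 0.79 ± 0.14 with vehicle, 0.34 ± 0.30 with BI 456906 30 nmol/kg and 0.82 ± 0.46 with semaglutide 100 nmol/kg (SD, n = 6).

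The 3 genes that target protein phosphatase 1 to glycogen did not follow the enzymes. Ppp1r3b, the main one of liver by level here, was at 102 to 129 TPM with vehicle (median 108). Over the 4 rising doses of BI 456906 it was at 100 to 185 TPM (153), 135 to 182 TPM (166), 94.5 to 168 TPM (143) and 95.5 to 146 TPM (123). With semaglutide 20 nmol/kg it was at 172 to 227 TPM (178), above every vehicle library, and with 100 nmol/kg at 67.1 to 181 TPM (153). It rose by 0.41 (SE 0.16, FDR 0.043) with BI 456906 10 nmol/kg and by 0.63 (SE 0.16, FDR 0.0016) with semaglutide 20 nmol/kg, and its fold change at BI 456906 30 nmol/kg was 0.00 (95% confidence interval -0.32 to 0.33). The first of these rises was lost in 1 of 14 alternatives (FDR up to 0.064). Without libraries 81 and 82, the change at semaglutide 100 nmol/kg went from 0.18 (FDR 0.36) to 0.47 (FDR 0.0097). The latter is a description, since those libraries were left out for their Ppp1r3g level.

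Ppp1r3c was at 37.5 to 52.8 TPM with vehicle (median 45.9), at 37.4 to 57.2 TPM (44.9) with BI 456906 30 nmol/kg and at 17.4 to 70.1 TPM (51.95) with semaglutide 100 nmol/kg. It passed the test in no group, its fold changes lying between -0.12 (SE 0.22) with semaglutide 100 nmol/kg and 0.30 (SE 0.22) with BI 456906 3 nmol/kg.

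Ppp1r3g, which is known to be switched by feeding, was low and the most variable of the 9. It was at 1.18 to 1.88 TPM in 5 vehicle libraries and at 5.18 TPM in the other. With BI 456906 30 nmol/kg it was at 4.49 to 6.53 TPM (median 5.04), and its fold change was 1.38 (SE 0.64, FDR 0.064). With semaglutide 20 nmol/kg it was at 1.99 to 9.60 TPM (median 5.67), with a fold change of 1.28 (FDR 0.10). Each of these changes passed in 3 of 14 alternatives, with FDRs of 0.00036 to 0.011 for BI 456906 and of 0.0066 to 0.024 for semaglutide. In the semaglutide 100 nmol/kg group, libraries 81 and 82 were at 25.3 and 18.8 TPM while the other 4 were at 0.99 to 2.81 TPM, and the fold change was 0.74 (SE 0.68, FDR 0.39). It was 1.81 (FDR 0.018) with edgeR and 1.83 (FDR 0.011) with DESeq2 on the recovered reads, and -0.59 (FDR 0.51) in limma/voom without these 2 libraries. The same 2 libraries had Ppp1r3c at 17.4 and 33.2 TPM. Over the BI 456906 doses the slope of Ppp1r3g, 0.45 log2 units per 10 nmol/kg (SE 0.18, FDR 0.032), passed the test, and was lost in 5 of 15 alternatives.

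**Figure D2:**
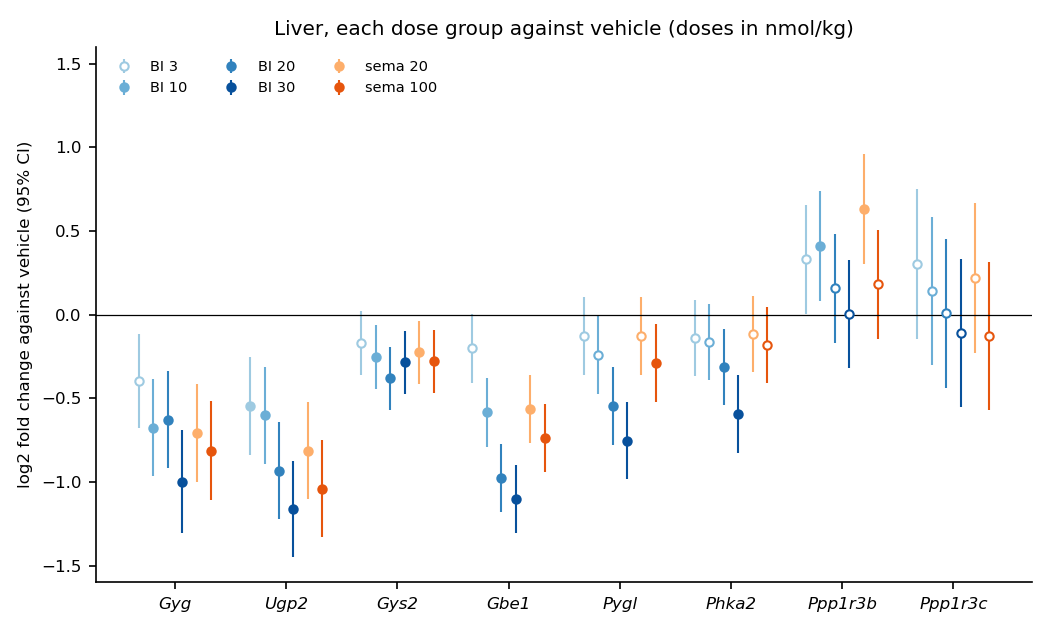
Log2 fold change against vehicle in liver (vertical axis) with 95% confidence intervals, for 8 genes (horizontal axis) and 6 dosed groups (colours; BI, BI 456906; sema, semaglutide; doses in nmol/kg). Filled points have an FDR of at most 0.05, and Ppp1r3g is left out for its wide intervals. The values of Gbe1 with BI 456906 go from -0.20 at 3 nmol/kg to -1.10 at 30 nmol/kg, while those of Ppp1r3b lie between 0.00 and 0.63.

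Counted over the members, BI 456906 at 3 nmol/kg lowered 1 of 9 and raised 0, where 4.93% of the 15964 genes tested in liver were lower and 8.46% higher. At 10 nmol/kg, 4 fell and 1 rose (18.1% of all genes lower, 19.4% higher). At 20 nmol/kg 6 fell (22.9% of all genes lower), and at 30 nmol/kg 6 fell (29.9% of all genes lower). Where none rose, 23% and 28.9% of all genes were higher. With semaglutide 20 nmol/kg 4 fell and 1 rose (23.5% of all genes lower, 23% higher), and with 100 nmol/kg 5 fell and 0 rose (24.1% of all genes lower, 24% higher). The median log2 fold change of the 9 was -0.59 with BI 456906 30 nmol/kg and -0.28 with semaglutide 100 nmol/kg, beside -0.03 and -0.02 over all genes tested. All libraries of a dosed group were below all vehicle libraries for 1, 2, 2 and 4 members over the rising BI 456906 doses (0.464%, 2.83%, 5.14% and 10.8% of all genes) and for 2 and 3 members over those of semaglutide (4.97% and 5.51%), while Ppp1r3b was above vehicle throughout at BI 456906 10 nmol/kg (10.8%) and semaglutide 20 nmol/kg (14.2%). At least 2-fold falls were seen for Gbe1 and Ugp2 with BI 456906 30 nmol/kg (6.9% of all genes) and for Ugp2 with semaglutide 100 nmol/kg (3.67%). The dose slope passed for 7 members, 6 downward (29.6% of all genes) and Ppp1r3g upward (29.3%). These comparisons share the vehicle libraries.

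At the same nominal dose of 20 nmol/kg, 2 members were lower with BI 456906 than with semaglutide, where 1.51% of all genes were. They were Gbe1, with a difference of -0.41 (SE 0.10, FDR 0.016), and Pygl, with -0.42 (SE 0.11, FDR 0.037). The Pygl difference was lost in 4 of 14 alternatives and that of Gbe1 in 1. Ppp1r3b was lower in all 6 BI 456906 libraries than in all 6 of semaglutide (0.99% of all genes), with a difference of -0.47 (SE 0.16) and an FDR of 0.12. For Ugp2 the interval of the difference was -0.40 to 0.17, for Gyg -0.24 to 0.39 and for Gys2 -0.34 to 0.03.

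Higher BI 456906 doses were set beside both semaglutide doses, which differ from them in nmol/kg. BI 456906 30 nmol/kg was lower than semaglutide 20 nmol/kg in 4 members (7.5% of all genes lower), which were Gbe1 (-0.54, FDR 0.00026), Pygl (-0.63, FDR 0.00019), Phka2 (-0.48, FDR 0.0048) and Ppp1r3b (-0.63, FDR 0.0078). In TPM, Pygl, Phka2 and Ppp1r3b did not overlap there (3.61% of all genes). Against semaglutide 100 nmol/kg it was lower in 3 (5.59% of all genes lower), Gbe1 (-0.37, FDR 0.015), Pygl (-0.47, FDR 0.0060) and Phka2 (-0.41, FDR 0.019). The Phka2 difference was lost in both TPM fits (-0.30 and -0.34, FDR 0.12 in each) and with only the groups compared (FDR 0.066), which also ended the call of Gbe1 (FDR 0.059). Without libraries 81 and 82 this became 5, with Ppp1r3b lower (-0.46, FDR 0.034) and Ppp1r3g higher (1.97, FDR 0.029). Those libraries were left out for their Ppp1r3g level, and Ppp1r3b and Ppp1r3g correlated at -0.58 within groups in liver. The count of 5 and all values without those libraries are therefore descriptions. In the main test against semaglutide 100 nmol/kg, the intervals of the difference were -0.40 to 0.16 for Ugp2, -0.52 to 0.15 for Gyg and -0.19 to 0.18 for Gys2. Against semaglutide 20 nmol/kg, the difference for Ugp2 was -0.35 (interval -0.63 to -0.06, FDR 0.092), which passed in 2 of 14 alternatives. Between both semaglutide doses 0 members passed in limma/voom (0% of all genes), 1 member (Ppp1r3b, -0.45, SE 0.16) had an unadjusted p under 0.05, and the member count was 0 in every alternative, edgeR and DESeq2 included.

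**Figure D3:**
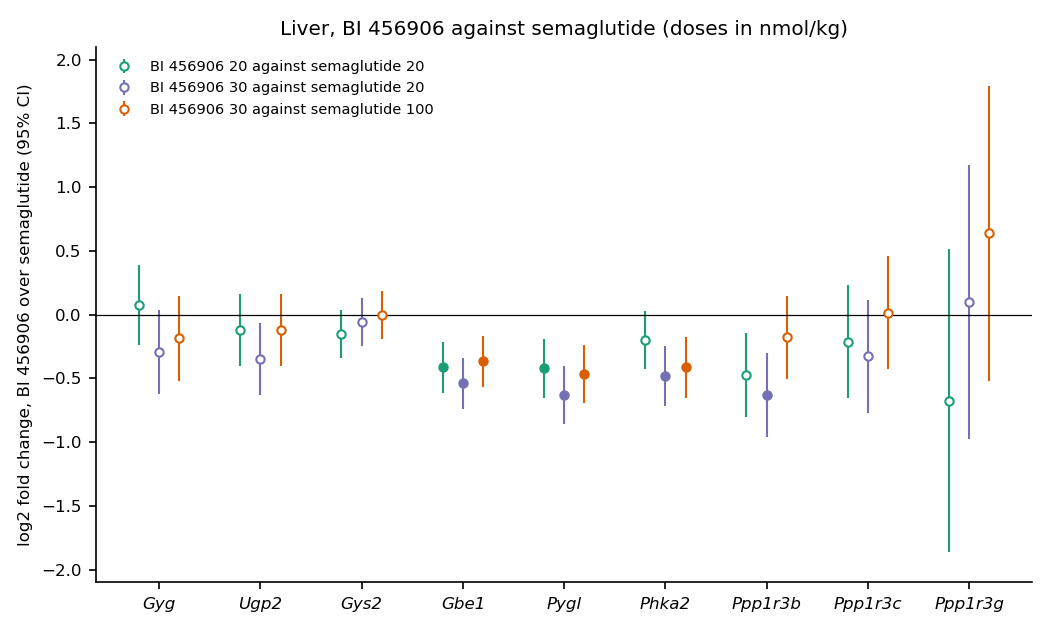
Log2 fold change of BI 456906 over semaglutide in liver (vertical axis) with 95% confidence intervals for the 9 genes (horizontal axis), at 20 against 20, 30 against 20 and 30 against 100 nmol/kg (colours). Filled points have an FDR of at most 0.05. Gbe1 and Pygl are below 0 in all 3 comparisons, while the intervals of Gys2 and Gyg span 0.

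Within treatment groups in liver, some members varied together and others in opposite directions, which is given as a description over 42 libraries that share depth and library preparation. With each group's mean removed, the Pearson correlation of log2 values was 0.75 between Ppp1r3b and Ppp1r3c, 0.73 between Pygl and Ppp1r3b and 0.68 between Gbe1 and Phka2. It was -0.60 between Ppp1r3c and Ppp1r3g and -0.52 between Gys2 and Gyg, and Gys2 was negative with every other member but Ppp1r3g (0.45). Among all genes tested, those most like Pygl were Pklr (0.88), the pyruvate kinase of liver, and Khk (0.85), ketohexokinase, and Khk also headed the lists of Ppp1r3b (0.79) and Ppp1r3c (0.78). The gene most like Gbe1 was Srebf1 (0.84), which encodes the lipogenic factor SREBP1. For Ugp2 it was Mettl7a1 (0.90), for Phka2 Syne1 (0.84) and for Ppp1r3g Csrp2 (0.79).

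Of 28 further genes of glycogen metabolism, 26 were tested in liver, and 6 rose and 10 fell with BI 456906 30 nmol/kg, against 5 and 7 with semaglutide 100 nmol/kg. Of all genes tested, 28.9% rose and 29.9% fell with the former and 24% rose and 24.1% fell with the latter, so that these counts lie near the background. Their median fold changes were -0.15 and -0.03. Among these 26, the largest falls with BI 456906 30 nmol/kg were those of the genes mutated in Lafora disease. Nhlrc1, which encodes the ubiquitin ligase malin, was at 1.01 to 1.86 TPM with vehicle (median 1.49) and at 0.29 to 0.73 TPM (0.47) with BI 456906 30 nmol/kg, and it fell by 1.63 (SE 0.19, FDR 4.0e-09). Both semaglutide doses lowered it, by 1.27 (20 nmol/kg; SE 0.18, FDR 5.2e-07) and by 1.08 (100 nmol/kg; SE 0.17, FDR 3.9e-06). Epm2a, the glycogen phosphatase laforin, went from 2.48 to 3.03 TPM with vehicle (median 2.73) to 0.90 to 1.84 TPM (1.295) with BI 456906 30 nmol/kg and fell by 1.12 (SE 0.16, FDR 1.6e-07). It also fell by 0.67 (FDR 0.00033) and by 0.62 (FDR 0.00068) with the lower and the higher semaglutide dose. With BI 456906 30 nmol/kg, Slc2a2, the glucose transporter GLUT2, fell by 0.70 (SE 0.13, FDR 1.3e-05), while Gsk3b, a kinase that inhibits glycogen synthase, rose by 0.68 (SE 0.11, FDR 1.1e-06) and Ppp1r3f, at 0.40 TPM or less with that dose, by 0.93 (SE 0.29, FDR 0.0058). Stbd1, which tethers glycogen to membranes, fell by 0.57 (SE 0.13, FDR 0.00021), and Phka1, the alpha subunit of muscle, rose by 0.53 (SE 0.08, FDR 9.3e-07). With semaglutide 100 nmol/kg, Phka1 rose by 0.52 (FDR 3.6e-06), Gsk3b by 0.59 (FDR 2.4e-05) and Ppp1r3f by 0.82 (FDR 0.020), and Slc2a2 fell by 0.46 (FDR 0.0034), while Stbd1 was at -0.08 (FDR 0.65). Between BI 456906 30 and semaglutide 100 nmol/kg, 1 of the 26 differed, Stbd1, which was lower with BI 456906 (-0.49, SE 0.13, FDR 0.010), where 5.59% of all genes were lower. Against semaglutide 20 nmol/kg, BI 456906 30 nmol/kg was lower in 4 of the 26 and higher in 0 (7.5% of all genes lower). With both compounds at 20 nmol/kg, 1 was lower with BI 456906 and 0 were higher (1.51% of all genes lower).

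The fat depot gave another picture, in which one gene stood out. Gys2 in eWAT was at 11.4 to 19.3 TPM with vehicle (median 16.6). Over the 4 rising doses of BI 456906 it was at 5.61 to 12.2 TPM (8.99), 3.32 to 11.7 TPM (7.75), 3.46 to 6.55 TPM (5.52) and 2.94 to 4.56 TPM (3.51). With semaglutide it was at 1.15 to 6.61 TPM (2.72) at 20 nmol/kg and at 0.55 to 6.24 TPM (1.55) at 100 nmol/kg. The groups given BI 456906 20 or 30 nmol/kg or either semaglutide dose lay wholly below vehicle, as did 0.982%, 2.9%, 1.63% and 2.21% of all genes. Gys2 fell by 1.20 (SE 0.26, FDR 0.027), 1.72 (SE 0.29, FDR 0.00055) and 2.40 (SE 0.32, FDR 3.7e-06) on the log2 scale with BI 456906 10, 20 and 30 nmol/kg, and by 2.43 (SE 0.32, FDR 1.8e-05) and 3.13 (SE 0.36, FDR 1.5e-06) with semaglutide 20 and 100 nmol/kg. At BI 456906 3 nmol/kg the change was -0.95 (SE 0.25, FDR 0.28), and at 10 nmol/kg the call was lost in 6 of 13 alternatives.

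In eWAT, BI 456906 30 nmol/kg lowered 2 of 8 members, where 13% of the 18536 genes tested were lower, and the second was Ppp1r3b, at 4.63 to 12.2 TPM with vehicle (median 6.80) and 2.62 to 4.48 TPM (3.55) with that dose, a fall of 1.03 (SE 0.24, FDR 0.0021). At BI 456906 10 and 20 nmol/kg and both semaglutide doses Gys2 was the 1 member that passed (0.464%, 2.91%, 4.54% and 9.42% of all genes lower). With BI 456906 3 nmol/kg 0 members passed in limma/voom (0% of all genes lower), 2 had an unadjusted p under 0.05 and the count was 0 in every alternative. Between the compounds at 20 nmol/kg 0 members passed (0% of all genes) and 0 had an unadjusted p under 0.05, the difference for Gys2 being 0.71 (interval -0.04 to 1.46). Gyg, at 73.5 ± 7.61 TPM with vehicle, Phka2 at 48.6 ± 3.54, Ugp2 at 82.1 ± 8.40, Pygl at 63.2 ± 11.8 TPM (SD, n = 6), Gbe1 at 19.6 to 29.01 TPM and Ppp1r3c at 4.91 to 8.31 TPM passed in no eWAT comparison. Gys1, the synthase of muscle and most other tissues, was at 28.1 ± 6.70 TPM with vehicle and 32.4 ± 7.48 TPM with BI 456906 30 nmol/kg, with a fold change of 0.20 (SE 0.20, FDR 0.51).

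Hepatocyte transcripts were found in eWAT and were highest with vehicle. The 6 hepatocyte markers summed to 18.8 to 5842 TPM with vehicle (median 1538), 70.95 to 1817 TPM (275), 33.1 to 2868 TPM (132), 29.7 to 556 TPM (141) and 19.7 to 1007 TPM (107) over the rising doses of BI 456906, and 39.1 to 145 TPM (84.2) and 6.00 to 1269 TPM (87.0) over those of semaglutide. None of the 6 was at 0 in any library, and how far this bears on the other values was not tested beyond what follows. Gys2 was at 14.9 TPM in vehicle library 1, where Alb was at 9.87 TPM, the lowest of that group. Scaled by Alb to the liver libraries of the same treatment, the liver transcripts in the vehicle eWAT libraries would carry 3.70 TPM of Gys2 on average (0.030 to 11.0), which leaves 12.3 ± 4.40 TPM, against 3.35 ± 0.29 TPM with BI 456906 30 nmol/kg and 2.11 ± 1.75 TPM with semaglutide 100 nmol/kg (SD, n = 6). With Alb as a covariate, Gys2 fell by 2.01 (FDR 4.2e-05) and 2.73 (FDR 1.8e-06) with these doses, and without the 10 libraries with Alb over 500 TPM, which leaves 2 of vehicle, by 2.51 (FDR 0.00048) and 3.33 (FDR 9.4e-05). For Ppp1r3b with BI 456906 30 nmol/kg the values were -0.79 (FDR 0.014) and -0.54 (FDR 0.33). Slc2a2 and Gckr, liver genes of glucose entry and sensing, were at 4.54 ± 3.44 and 5.43 ± 5.01 TPM in vehicle eWAT and fell by 3.31 (SE 0.73, FDR 0.0013) and 3.19 (SE 1.02, FDR 0.022) with BI 456906 30 nmol/kg. The muscle actin Acta1 was at 25.9 to 489 TPM in eWAT, while Ckm and Myh4 did not exceed 1.17 TPM, and the 4 epididymis markers summed to 0.15 TPM at most. In eWAT the 5 adipocyte markers summed to 17133 to 33069 TPM with vehicle. They summed to 15462 to 28606 TPM with BI 456906 30 nmol/kg and to 11403.5 to 26123 TPM with semaglutide 100 nmol/kg. The 5 macrophage markers summed to 1852 to 5080, 2366 to 6430 and 3853 to 6117 TPM in the same groups. What these sums mean for Gys2 was not tested.

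**Figure D4:**
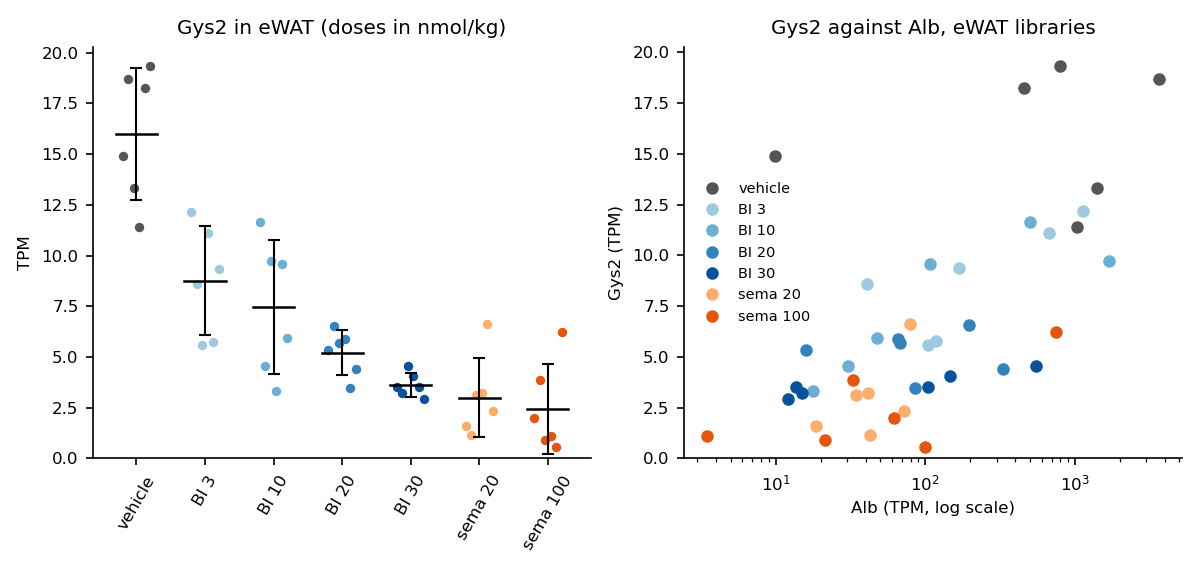
Left, Gys2 TPM in the 42 eWAT libraries by group (points, libraries; bar and whisker, mean ± SD, n = 6). Right, Gys2 TPM of the same libraries against Alb TPM, on a logarithmic axis (colours, groups; BI, BI 456906; sema, semaglutide; doses in nmol/kg). Vehicle libraries lie between 11.4 and 19.3 TPM of Gys2, including the one with Alb at 9.87 TPM.

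Liver and eWAT differed in how members responded. In a fit of both tissues over 15297 genes, the change with BI 456906 30 nmol/kg against vehicle was lower in liver than in eWAT for 5 of 8 members (25.3% of all genes), namely Gyg, Ugp2, Gbe1, Pygl and Phka2, and higher for 2 (20.6%), Gys2 and Ppp1r3b. The difference was -1.33 (SE 0.17, FDR 1.7e-09) for Ugp2 and 2.01 (SE 0.30, FDR 9.4e-08) for Gys2. With semaglutide 100 nmol/kg it was lower in liver for 3 members (16.7% of all genes), Gyg, Ugp2 and Gbe1, and higher for 1 (17.2%), Gys2, by 2.80 (SE 0.33, FDR 1.8e-09). The fit of both tissues took no account of the hepatocyte transcripts in eWAT. Without libraries with Alb over 500 TPM, the eWAT change of Ppp1r3b with BI 456906 30 nmol/kg was -0.54 (FDR 0.33). How far the tissue differences rest on those transcripts was not tested.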

How the data were processed

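RNA sequencing of 42 liver and 42 eWAT libraries was analysed from the deposited tables. Before deposit the authors scaled each library's read counts by a single factor, so the deposited count tables hold a scaled signal, and the authors' second tables hold TPM. In every library 100% of the nonzero values were whole multiples of 1 step (tolerance 0.01 of a read), which gave back whole reads. The submitters' processing notes name STAR 2.5.2b, RSEM 1.3.0, featureCounts 1.5.1 and GRCm38. The paper describes stranded paired-end libraries and the labels another kit with single reads, so strand use in counting is not known. Gene symbols came from GENCODE M21, which paired 48434 of 48794 identifiers.

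The deposited signal was tested with limma/voom (limma 3.58.1 under R 4.3.3) with edgeR 4.0.16 for TMM normalization, filterByExpr and a prior count of 0.5, in 1 fit per tissue over 7 groups. P-values were Benjamini-Hochberg adjusted over all genes of a contrast, passing at an FDR of 0.05. Levels are deposited TPM. Alternatives used RLE factors, library size alone, other filters, edgeR quasi-likelihood and DESeq2 1.42.0 on the recovered reads, and limma on log2(TPM + 1) or log2(TPM + 0.1). Sample quality weights, fits of only the groups compared and fits without single libraries were also tried. For BI 456906 30 nmol/kg against vehicle, edgeR on the recovered reads called 9458 genes in liver and 4785 in eWAT, beside 9384 and 4432 with limma/voom. The fits were tested on simulated data. Replicates are separate libraries of 1 group, and whether each is a separate mouse is not stated in the labels. No 2 libraries of a group agreed within counting error (lowest chi-square per degree of freedom 17.2 in liver and 14.4 in eWAT over 105 pairs each).

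The members and lists were chosen with earlier results of these data known. Named were the 9 members, the pathway genes with an FDR of at most 0.05 and a log2 fold change of at least 1 in size, the 5 further pathway genes with the largest changes with BI 456906 30 nmol/kg in liver, and the genes most like each member. Some genes that this rule names are not reported here. Gys1 in eWAT was added after its values were seen. The spread over libraries includes counting error.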

Additional observations from a re-analysis of the deposited data

Results flagged for a closer look

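In each of 126 sets of 6 libraries (9 genes, 7 groups, 2 tissues) the most extreme value was compared with the rest by Dixon's criterion, which chance meets in about 1 set in 20, or 6.3 sets here, and 14 sets met it. In liver at BI 456906 30 nmol/kg, library 70 was high for Ugp2 (131 TPM, others 71.4 to 90.3) and Pygl (196 TPM, others 139 to 160), and library 69 for Gbe1 (55.6 TPM, others 41.2 to 46.4). At semaglutide 20 nmol/kg, library 74 was high for Gys2 (167 TPM, others 110 to 130.2) and library 76 for Ppp1r3c (102 TPM, others 41.8 to 60.0), and at 100 nmol/kg library 81 was low for Pygl (136 TPM, others 218 to 252). Ppp1r3g was high in vehicle library 47 (5.18 TPM), in library 58 at BI 456906 10 nmol/kg (13.2 TPM) and in library 61 at 20 nmol/kg (7.72 TPM). In eWAT, library 39 at semaglutide 100 nmol/kg was low for Ugp2 (68.8 TPM), library 9 at BI 456906 3 nmol/kg was high for Gbe1 (34.7 TPM) and Pygl (83.4 TPM), and Ppp1r3g, near the limit of detection there, was highest in vehicle library 6 (0.29 TPM) and in library 27 at BI 456906 30 nmol/kg (0.37 TPM).

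The change against vehicle differed between liver and eWAT, by the interaction test of limma/voom, in 11 of 16 tests. With BI 456906 30 nmol/kg the differences, liver minus eWAT on the log2 scale, were -1.11 for Gyg (FDR 2.0e-06), -1.33 for Ugp2, 2.01 for Gys2, -1.28 for Gbe1 (FDR 2.8e-09), -1.22 for Pygl (FDR 1.7e-05), -0.65 for Phka2 (FDR 0.00010) and 0.93 for Ppp1r3b (FDR 0.0056). With semaglutide 100 nmol/kg they were -0.95 for Gyg (FDR 5.9e-05), -1.10 for Ugp2 (FDR 7.7e-07), 2.80 for Gys2 and -0.61 for Gbe1 (FDR 0.0033). None of the interaction fits took account of the hepatocyte transcripts in eWAT.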

How the results depend on the processing

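Of 262 recounts of the members passing, in 20 comparisons, 238 were within 1.5 times the value reported. Of 2251 member results under an alternative, 2173 stayed as they were, 48 lost a call, 30 gained one and 0 changed direction with a call. Those that stayed include results that passed in neither fit, so the 48 are not a share of the calls made. The median over all genes moved by at most 0.064 (log2) under another scaling. In liver, the count for BI 456906 3 nmol/kg against vehicle went from 1 to 2 with at least 10 counts in every library or with voom on recovered reads, to 3 with sample quality weights and to 0 with only the groups compared. For 10 nmol/kg it went from 5 to 3 with no filter. For BI 456906 20 against semaglutide 20 nmol/kg it went from 2 to 1 with no filter or either TPM fit and to 0 with only the groups compared, and for 30 against semaglutide 100 nmol/kg from 3 to 1 with only the groups compared and to 5 without libraries 81 and 82. In eWAT, the count for BI 456906 10 nmol/kg went from 1 to 0 with edgeR, DESeq2, both TPM fits, only the groups compared or Alb as a covariate. It went from 1 to 2 for 20 nmol/kg with DESeq2 or quality weights, for semaglutide 20 nmol/kg with edgeR, DESeq2 or quality weights and for 100 nmol/kg with quality weights, and from 2 to 1 for BI 456906 30 nmol/kg without libraries with Alb over 500 TPM. Over all genes, edgeR in place of limma/voom moved the number called against vehicle in eWAT from 95 to 34 for BI 456906 10 nmol/kg, from 792 to 1386 for 20 nmol/kg and from 1174 to 1822 for semaglutide 20 nmol/kg. Fewer libraries enter the fits of only the groups compared, and their filter and spread come from those groups alone. The cause was not tested for any of these moves. The voom fit on recovered reads, the fits without libraries 81 and 82 and those using Alb were chosen after seeing the data. No paired analysis was possible because every library number occurs once and the labels do not tie libraries to mice.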
